A study of Mus musculus with 47 samples.

Results

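The 10 genes described here, Ttr, Folr1, Clic6, Kl, Prlr, Otx2, Slc4a5, Kcne2, Tmem72 and Kcnj13, are markers of the choroid plexus and were taken by symbol from a table of 28032 genes, where each of the 10 had 1 entry. The table gave 1 value per gene in each of 47 RNA-seq libraries, made from poly(A) RNA of 1 whole hippocampus per C57BL/6 mouse. The 12 groups combined age (young, 3 to 5 months; old, 18 to 22 months), sex and time, with 4 mice in each except old females on day 4 (n = 3). Controls were taken from the home cage with no surgery or earlier anesthesia. Septic mice underwent cecal ligation and puncture, a puncture of the gut that lets bacteria into the abdomen, and hippocampi were collected 1 day or 4 days later. The septic mice also received an analgesic, antibiotics and daily restraint, so sepsis cannot be told apart from surgery, drugs and restraint, and in old mice day 4 represents the animals that lived that long. Values were CPM (read counts scaled to a common library total), normalized by the authors.

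The choroid plexus is a sheet of epithelium over a core of vessels that hangs in the brain ventricles and secretes cerebrospinal fluid. In the lateral ventricle it lies against the inner edge of the hippocampus, but it is not part of it. Its epithelial cells move ions and water from blood to fluid and release carrier proteins and vitamins, and most of the 10 genes belong to one of these tasks. Ttr encodes transthyretin, the carrier of thyroid hormone and of retinol-binding protein in the fluid. Folr1 encodes the folate receptor that passes folate into the fluid. Slc4a5, a sodium bicarbonate cotransporter, Kcnj13, the inwardly rectifying potassium channel Kir7.1, and Kcne2, a potassium channel beta subunit, carry ions, and Clic6 belongs to the chloride intracellular channel family. Kl encodes klotho, the co-receptor for the hormone FGF23, which is known from kidney and choroid plexus and at a lower level from neurons. Prlr is the prolactin receptor, Otx2 a homeodomain transcription factor of the choroid plexus, and Tmem72 a transmembrane protein.

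Libraries held an estimated 17342861 to 28143705 reads (median 21435492). The commonest value above 0 in each library was taken as 1 read, which was worth 0.0307 to 0.0456 CPM. Depth was not related to Ttr (Pearson r = -0.00, permutation p = 0.981, Spearman rho = 0.06, permutation p = 0.686, n = 47 libraries, deviations from group means). For 1 library, labelled young male day 4 replicate 3, sex-linked expression went against the label, and it was kept as labelled. It held 6.36 CPM of Ttr, the lowest in its group.

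Ttr differed more between mice of one group than any other of the 11691 genes tested. It ranged from 1.53 CPM in young female day 1 replicate 2 to 4670 CPM in young male day 1 replicate 4, a 3050-fold range with a median of 47.2. The 47 libraries filled this range without a wide break, and the largest step between neighbouring libraries was 1.01 on the log2 scale, between 756 and 1520 CPM. There were 14 libraries under 10 CPM, 12 between 10 and 100, 8 between 100 and 1000, and 13 above 1000.

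Each of the groups mixed libraries from different parts of this range. In young male controls Ttr was 4550, 309, 13.1 and 4.17 CPM in replicates 1 to 4. Young males on day 1 had 3360, 182, 91.7 and 4670 CPM, and on day 4 they had 3460, 144, 6.36 and 607 CPM. The highest control of this age and sex had 1090 times the Ttr of the lowest, and 7 of the 8 septic libraries fell between them.

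Old male controls were the group with the least Ttr, at 5.56, 2.98, 30.7 and 2.13 CPM. On day 1, 3 old males lay close to these values, at 8.44, 8.96 and 15.7 CPM, and replicate 3 had 2940 CPM. On day 4, replicates 2, 3, 5 and 8 had 35.2, 2480, 213 and 151 CPM. All 4 day 4 libraries were above all 4 controls, although the lowest, at 35.2 CPM, was close to the highest control, at 30.7 CPM.

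Young female controls had 3.46, 25.3, 3050 and 7.39 CPM of Ttr. Their day 1 counterparts had 8.48, 1.53, 756 and 3180 CPM, and on day 4 the values were 1520, 56.1, 4040 and 17.2 CPM. In old female controls the values were 9.90, 12.1, 1800 and 21.0 CPM, on day 1 they were 31.5, 147, 3130 and 4.81 CPM, and on day 4 replicates 2, 4 and 7 had 1790, 4.52 and 47.2 CPM. In females the control and septic ranges overlapped at both ages and on both days.

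**Figure D1:**
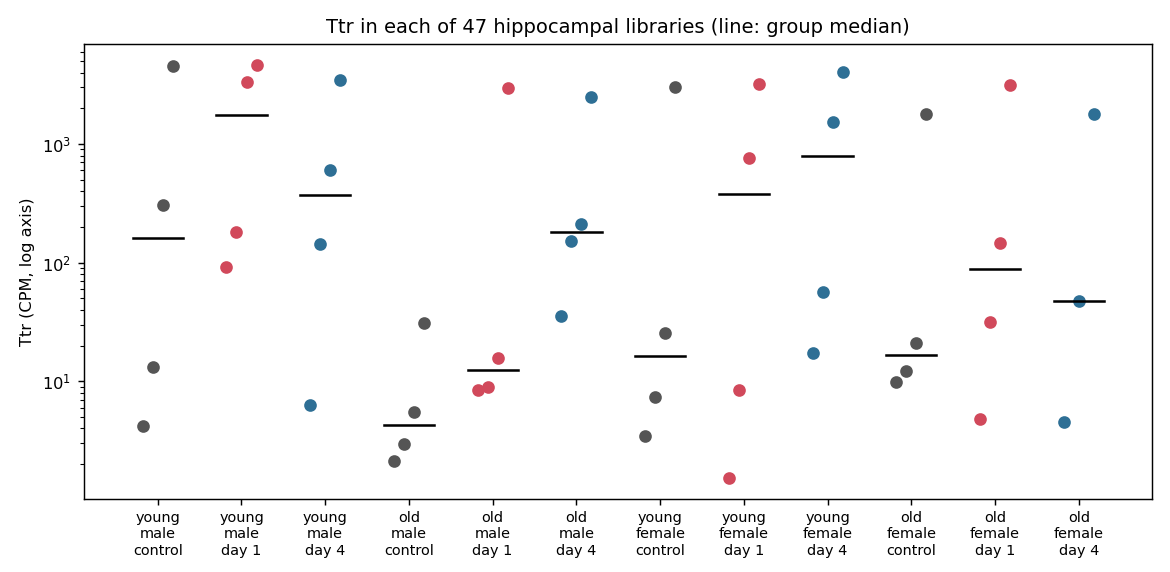
Ttr in each of the 47 libraries (points; log axis, CPM), by group, with the group median as a line; control in grey, day 1 in red and day 4 in blue. Values run from 1.53 to 4670 CPM, libraries above 1000 CPM occur in 11 of the 12 groups, and old male controls, at 2.13 to 30.7 CPM, are the group without one.

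The 13 libraries with at least 1000 CPM of Ttr were spread over 11 groups, with 3 controls, 5 from day 1 and 5 from day 4. In 9 groups the highest library exceeded the lowest by at least 100-fold. Over all ages and sexes, the 16 control libraries ran from 2.13 to 4550 CPM with a median of 12.6, the 16 day 1 libraries from 1.53 to 4670 with a median of 119, and the 15 day 4 libraries from 4.52 to 4040 with a median of 151. At its highest, in young male day 1 replicate 4, Ttr made up 0.604% of all CPM in the table. In bulk tissue, fewer choroid plexus cells and less RNA per cell cannot be told apart.

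The other genes repeated the order of Ttr at lower levels. Folr1 ranged over the 47 libraries from 0.463 to 53.3 CPM, Clic6 from 0.414 to 101, Slc4a5 from 0 to 51.9, Tmem72 from 0.0387 to 61.4, Kcnj13 from 0 to 31.7, Otx2 from 0.18 to 22.2 and Kcne2 from 0 to 22.1. Kl and Prlr had a narrower relative range, from 11.5 to 184 CPM and from 2.16 to 50.7 CPM. Divided by exon length, the mean level of Ttr was 771 CPM per kb, followed by Clic6 at 5.02, Folr1 at 4.63, Kl at 4.13, Kcnj13 at 4.07, Kcne2 at 2.02, Slc4a5 at 1.52, Otx2 at 1.05, Prlr at 0.677 and Tmem72 at 0.519. The means of Clic6, Folr1, Kl and Kcnj13 lay close together, and their order was not tested.

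The genes lie on 8 chromosomes of GRCm38, and the 2 pairs on 1 chromosome do not overlap one another. Ttr is at 20665280 to 20674321 on chromosome 18, Folr1 at 101858331 to 101870788 on chromosome 7, Kl at 150952607 to 150993817 on chromosome 5, Prlr at 10177238 to 10349180 on chromosome 15 and Otx2 at 48657677 to 48673819 on chromosome 14. Clic6, at 92485736 to 92541243, and Kcne2, at 92292389 to 92298129, share chromosome 16, and Slc4a5, at 83219828 to 83304945, and Tmem72, at 116679063 to 116716913, share chromosome 6. Kcnj13 is at 87386363 to 87394729 on chromosome 1, and 49.1% of its exon bases overlap Gigyf2, a gene on the opposite strand. No source used here states whether reads were counted by strand, so its values are uncertain. Prlr and Otx2 overlap other genes over 1.32% and 3.98% of their exon bases, and the other 7 over 0.

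The spread within groups was large against that of most genes tested. The standard deviation (SD) of log2(CPM + 1) within groups was 3.73 for Ttr, rank 1 of 11691 genes tested. It was 2.17 for Slc4a5 (rank 3), 2.15 for Tmem72 (rank 4), 2.07 for Clic6 (rank 6), 1.83 for Folr1 (rank 7) and 1.77 for Kcnj13 (rank 8). For Prlr it was 1.33 (rank 17) and for Kl 1.21 (rank 27). The median over these 8 genes was 1.95, against 0.161 over all genes tested. Otx2 and Kcne2, with means of 4.43 and 3.58 CPM, lay under the filter of a mean of 5 CPM, which Kcnj13 passed at 5.17. Without the filter their SDs were 1.41 and 1.63, ranks 19 and 13 of 28032 genes. Over the 47 libraries, Slc4a5, Tmem72, Kcnj13, Folr1, Clic6 and Prlr had medians of 0.518 to 4.0 CPM. They passed the filter on the mean through their high libraries, so a large SD was partly set by the filter for them. Ttr and Kl, with medians of 47.2 and 17.9 CPM, did not depend on this.

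**Figure D2:**
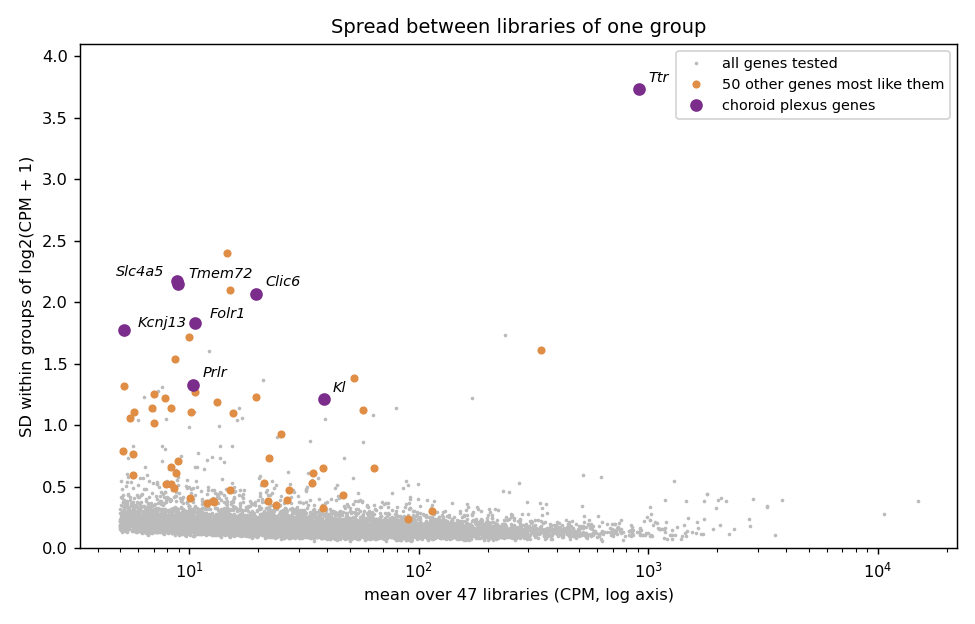
SD within groups of log2(CPM + 1) against mean level (CPM, log axis) for the 11691 genes tested (grey), the 8 choroid plexus genes among them (purple) and the 50 other genes most like them (orange). The median SD is 1.95 for the choroid plexus genes and 0.161 for all genes, and Ttr stands highest at 3.73. All choroid plexus genes but Ttr and Kl passed the filter on the mean through their high libraries, which partly sets their SD.

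As a multiple, the highest library of a group exceeded the lowest by 14.4-fold to 2080-fold for Ttr (median over 12 groups, 372-fold). The median was 40.7-fold for Clic6, 36.0-fold for Folr1, 31.3-fold for Otx2, 10.6-fold for Prlr and 6.51-fold for Kl. For Tmem72 it was 214-fold, from lowest libraries that held 3 reads or fewer in some groups. Slc4a5 and Kcne2 were each listed at 0 in 4 libraries and Kcnj13 in 2, so no multiple over these libraries is given.

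Differences among the 12 groups did not exceed this spread. The moderated F test of limma over the 12 group means gave F = 0.971 for Ttr (adjusted p = 0.505) and adjusted p of 0.766 to 0.893 for the other 7 genes tested. None of the 8 was called at p below 0.01 and none at p below 0.05, where 65.5% and 78.6% of the 11691 genes tested were. Without the filter, the adjusted p was 0.883 for Otx2 and 0.936 for Kcne2. The groups accounted for 20.6% of the variance of Ttr and for a median of 13.2% over the 8 genes, against 53.3% over all genes tested. These shares are not corrected for the number of groups, and 12 group means take up part of the variance with no group difference. With F of 0.504 to 0.971 over the 8 genes, their shares are not read as an effect of group.

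The study set each day after sepsis against controls of the same age and sex to ask how the hippocampus responds. In 7 of these 8 comparisons limma called none of the 8 genes at p below 0.01, and none had p below 0.05, a threshold that 3.16% to 40.7% of all genes passed. An unmoderated F test also called none. The share of all genes called was 8.04% for young males on day 1, 3.4% for young males on day 4, 8.48% for old males on day 1, 4.76% for young females on day 1, 0.813% for young females on day 4, 26.7% for old females on day 1 and 4.9% for old females on day 4. Estimates were mostly above 0 but imprecise. The median log2 difference over the 8 genes was 1 for young males on day 1 and 0.01 on day 4, 1.02 for old males on day 1, 0.71 and 0.99 for young females on days 1 and 4, and 0.31 and 0.19 for old females. Standard errors in these comparisons ran from 0.41 to 2.47 over the 8 genes, whereas the median over all genes was 0.08 to 0.13 in each. The largest Ttr estimate among them, 2.84 in young males on day 1, had a standard error of 1.92 (2080 ± 2300 against 1220 ± 2220 CPM, n = 4 and 4, limma adjusted p = 0.474).

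Old males on day 4 were the exception. Of the 8 genes, 3 were higher than in old male controls at p below 0.01 and 0 were lower, where 41.7% of all genes tested were called, 19.7% higher and 22% lower. A count of 3 of 8 is near the share called in either direction. Ttr was 720 ± 1180 CPM against 10.3 ± 13.6 CPM (mean ± SD, n = 4 and 4), a log2 difference of 5.03 (SE 1.01, limma adjusted p = 0.00187 over all genes tested). Clic6 was 2.87, 35.4, 5.91 and 4.48 CPM on day 4 and 1.25, 1.94, 1.69 and 1.89 CPM in controls, with a log2 difference of 1.67 (SE 0.51, limma adjusted p = 0.0164). Folr1 was 1.73, 21.5, 3.55 and 3.28 CPM on day 4 and 0.711, 0.91, 1.69 and 1.04 CPM in controls, with a log2 difference of 1.52 (SE 0.49, limma adjusted p = 0.0207). In all 3 genes replicate 3 was far above the other day 4 libraries, and in none did the groups overlap. Ttr, Clic6, Folr1, Slc4a5 and Otx2, 5 of the 10, had no overlap, as had 47.1% of all genes tested.

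The other genes had smaller or less certain differences in old males on day 4. Slc4a5 and Tmem72 were short of the threshold, with p between 0.01 and 0.05 (log2 differences of 1.45, SE 0.53, and 1.54, SE 0.55; adjusted p = 0.036 and 0.0333, limma). For Kcnj13 the estimate was 1.01 (SE 0.49) and for Kl 0.46 (SE 0.22), with limma adjusted p of 0.103 and 0.0903. Prlr was at 4.38 ± 2.28 CPM against 3.72 ± 0.62 CPM (n = 4 and 4), a log2 difference of 0.11 (SE 0.23, limma adjusted p = 0.708). Without the filter, Otx2 and Kcne2 had estimates of 0.81 (SE 0.42) and 0.97 (SE 0.49) with limma adjusted p of 0.232 and 0.221. With these, 5 of the 8 genes had p below 0.05, as had 57.6% of all genes tested. The median over the 8 genes was 1.48, against -0.018 over all genes tested.

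The number of genes called in old males on day 4 changed with the libraries used and with the fit. Without old male control replicate 1, 2, 3 or 4, each left out alone, Ttr alone was called. Without old male day 4 replicate 2 or replicate 3, 5 of the 8 were called. In 1 fit that took the spread from all 12 groups, none was called and the adjusted p of Ttr was 0.0823. Old male controls had no library above 30.7 CPM of Ttr, while each of the other 11 groups had at least 1 above 1000. Clic6 and Folr1, with medians of 3.7 and 1.92 CPM over the 47 libraries, passed the filter through such high libraries.

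The level of these genes also moved with the calls over all genes in this comparison. With the mean log2(CPM + 1) of the 8 genes in each library as a covariate, 2421 genes were called in old males on day 4 in place of 4877, and 2208 were called both ways, 45.3% of those called without it. In old against young male controls, 754 genes were called in place of 978, and 551 both ways (56.3%). In the other 12 comparisons 77.9% to 96.3% of the genes called without the covariate were called with it. The median log2 difference of the 8 genes was 1.48 and -1.78 in these male comparisons, and the part of their level that follows the group cannot be told apart from the group.

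Markers of other cell types were read in the same libraries, and their counts stand beside the 19.7% of all genes called higher and 22% called lower in this comparison. The 30 other choroid plexus genes summed to 244 to 299 CPM in old male controls and 271 to 895 CPM on day 4, with 7 of the 20 tested higher and 0 lower (median log2 difference 0.86): Igf2, Igfbp2, Lbp, Mfrp, Slc13a4, Slc29a4 and Trpv4. Over the 47 libraries, Lbp, Mfrp and Trpv4 had medians of 4.87, 0.708 and 2.85 CPM. These and others of the list, such as Aqp1 (0.566), passed the filter through libraries high in Ttr. For such genes a difference from old male controls, which had no such library, was partly set by the filter. The 15 ependymal markers, genes of the ciliated cells that line the ventricles, summed to 58.2 to 69.0 CPM and 57.3 to 65.2 CPM (1 of 5 higher, 1 lower). The 14 meningeal and fibroblast markers summed to 53.8 to 64.0 CPM and 49.4 to 69.9 CPM, with none of 3 called. Hippocampal neuron markers summed to 973 to 1070 CPM and 1070 to 1180 CPM (3 of 11 higher, 1 lower). Among microglial markers 3 of 6 were higher and 1 lower (median log2 difference 0.25), among astrocyte markers 2 of 7 were higher and 2 lower (-0.26), and among endothelial and mural markers 2 of 12 were higher and 2 lower (0.06). Oligodendrocyte markers had 1 of 7 higher and 1 lower, and thalamic markers 1 of 5 and 1. The 4 red blood cell genes tested had a median log2 difference of -1.34, larger in size than that of the choroid plexus list, and none was called. No gene of these lists was at 0 in every library. How much the amount of choroid plexus in the dissected tissue contributed to the old male difference was not tested.

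**Figure D3:**
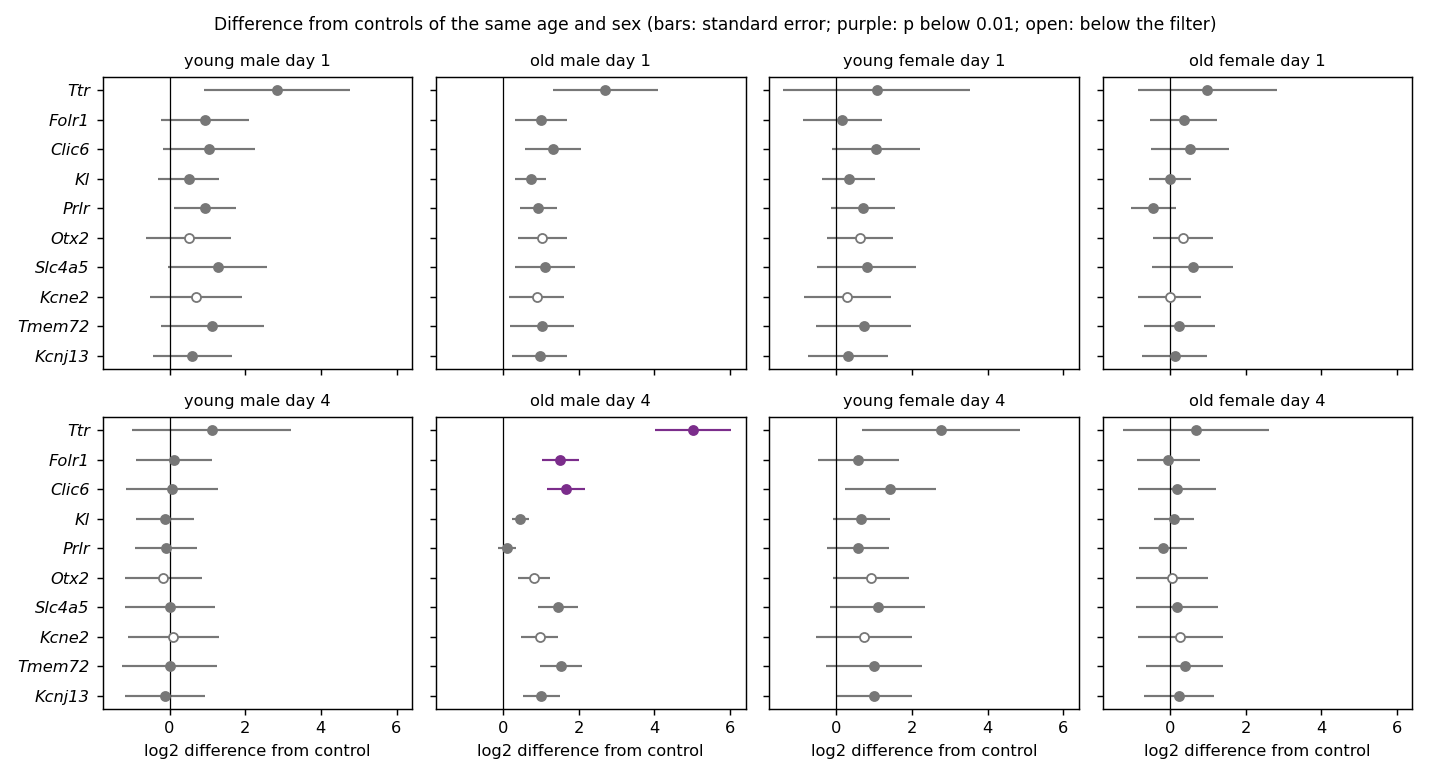
Log2 difference from controls of the same age and sex for each of the 10 genes (points; bars, standard error), 1 panel for each age, sex and day. Filled purple points have p below 0.01 in limma, which occurs for Ttr, Folr1 and Clic6 in old males on day 4 alone; open points are Otx2 and Kcne2, fitted without the filter on low values.

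Day 4 was also set against day 1, the comparison the study used for recovery. Limma called none of the 8 genes in the 4 comparisons, none had p below 0.05 (18.2% to 60.4% of all genes had), and an unmoderated F test called none. Among all genes tested, limma called 14.4% for young males, 46% for old males, 7.3% for young females and 23% for old females. The median log2 difference over the 8 genes was -1.01 for young males, 0.35 for old males, 0.35 for young females and -0.11 for old females. In old males, the comparison with the largest share, the adjusted p of the 8 genes was at least 0.224.

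Old and young controls were compared within each sex to measure the effect of age. In males none of the 8 genes was called, where 8.37% of all genes were, and in females none was, where 1.43% were. An unmoderated F test called none in either sex. All 8 estimates were lower in old males, with a median log2 difference of -1.78. In males 2 had p below 0.05, where 21.5% of all genes had. They were Ttr (10.3 ± 13.6 against 1220 ± 2220 CPM, n = 4 and 4, log2 difference -3.82, SE 1.69, limma adjusted p = 0.218) and Kcnj13 (log2 difference -1.76, SE 0.79, limma adjusted p = 0.227). The libraries of old and young males overlapped for all 8 genes, as they did not for 13.4% of all genes tested. These are the same old male controls that enter the day 4 comparison, so the comparisons share libraries. In females the estimates lay between -0.24 and 0.32, and none had p below 0.05.

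Whether the change after sepsis differed between ages or between sexes was tested as an interaction. Over 8 such contrasts limma called none of the 8 genes, and none had p below 0.05. The smallest p was that of Ttr between old females and old males on day 4 (difference of log2 differences -4.35, SE 2.41, adjusted p = 0.218), where 14.9% of all genes were called. Between old and young males on day 4 the estimate for Ttr was 3.91 (adjusted p = 0.37), and 8.72% of all genes were called. For the other contrasts of age, 0.513% of all genes were called for males on day 1, 8.87% for females on day 1 and 0.368% for females on day 4. For those of sex, 0.488% were called for young mice on day 1, 0.881% for young mice on day 4 and 16.4% for old mice on day 1. The call in old males on day 4 is thus not shown to differ from the other ages and sexes.

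Within groups, the genes moved together. After subtracting group means from log2(CPM + 1), the Pearson correlation with Ttr over 47 libraries was 0.96 for Clic6 and Slc4a5, 0.95 for Tmem72 and Kcnj13, 0.94 for Folr1 and Kcne2, 0.93 for Otx2, 0.92 for Kl and 0.91 for Prlr. Spearman's rho was 0.87 to 0.94. Each permutation p was 1e-05, the smallest that 100000 resamples can give (adjusted p = 1.11e-05 over 10 relations, library depth included). Without the 2 libraries farthest from the median, r was 0.9 to 0.95, and in the 34 libraries with less than 1000 CPM of Ttr it was 0.67 for Prlr to 0.9 for Slc4a5. The 45 pairs among the 10 genes had r of 0.91 to 0.99 with a median of 0.97.

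**Figure D4:**
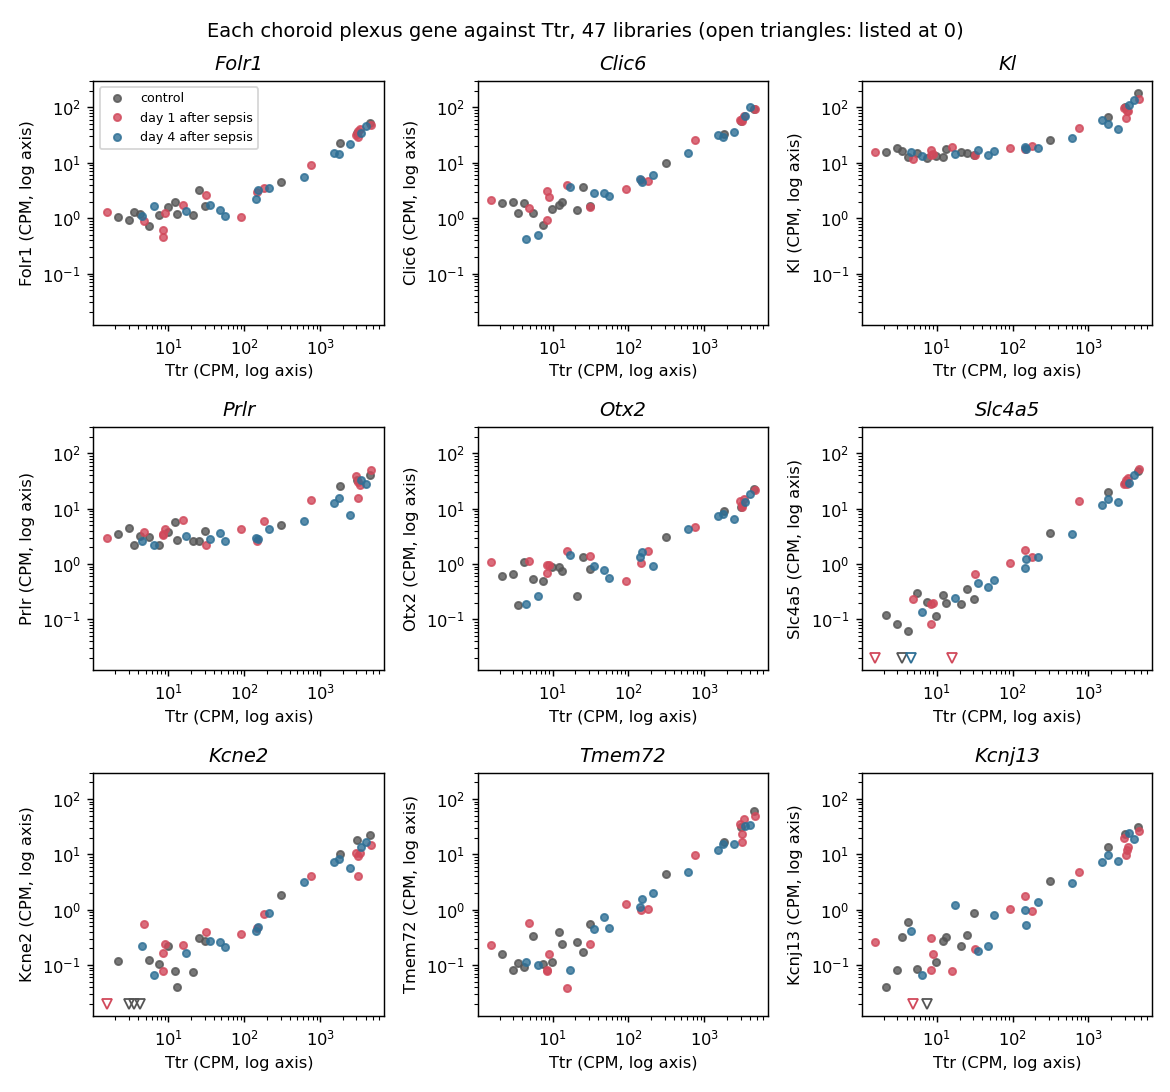
CPM of the other 9 choroid plexus genes against CPM of Ttr in 47 libraries (both axes log; grey control, red day 1, blue day 4; open triangles, values listed at 0). All rise with Ttr above 100 CPM; Kl levels off at 11.5 to 18.2 CPM and Prlr at 2.16 to 4.42 CPM in the 14 libraries with less than 10 CPM of Ttr, while Slc4a5, Kcne2, Tmem72 and Kcnj13 approach 0.

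The genes differed in how much was left in libraries with almost no Ttr. In the 14 libraries with less than 10 CPM of Ttr, Kl was at a median of 14.8 CPM (range 11.5 to 18.2) and Prlr at 3.24 CPM (2.16 to 4.42). Clic6 was at 1.49 CPM (0.414 to 3.09), Folr1 at 1.11 CPM (0.463 to 1.66) and Otx2 at 0.678 CPM (0.18 to 1.12). Slc4a5, Kcne2, Tmem72 and Kcnj13 were at medians of 0.116, 0.112, 0.111 and 0.0983 CPM, worth a few reads each. In the 13 libraries with at least 1000 CPM of Ttr, the medians were 87.9 CPM for Kl, 27.4 for Prlr, 59.9 for Clic6 and 34.2 for Folr1. They were 11.5 CPM for Otx2, 28.9 for Slc4a5, 10.7 for Kcne2, 31.6 for Tmem72 and 13.8 for Kcnj13.

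A straight line of each gene's CPM on that of Ttr put the same genes at the top. Its intercept, the level at no Ttr, was 13.7 CPM for Kl (SE 2.02) and 3.01 CPM for Prlr (SE 0.77), followed by Clic6 at 1.52 (SE 0.776), Folr1 at 0.996 (SE 0.357) and Otx2 at 0.719 (SE 0.21). The intercepts of Kcne2, Kcnj13, Slc4a5 and Tmem72 were smaller than their standard errors. For each 1000 CPM of Ttr, Kl rose by 27.2 CPM, Clic6 by 19.8, Folr1 by 10.5, Tmem72 by 10.1, Slc4a5 by 9.83, Prlr by 8.06, Kcnj13 by 5.46, Otx2 by 4.06 and Kcne2 by 3.72. These lines describe the 47 libraries and were not fitted by group.

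The promoter sequences of the gene with the highest remaining level and of 2 that approached 0 are shown to compare their base composition. They cover the 250 bases before the annotated start, 5′ to 3′ on the strand of the gene, from RefSeq (GRCm38.p6), in which 7 of the 10 genes were matched (all but Ttr, Folr1 and Clic6). Capitals mark the letters TATAAA, searched on the strand of the gene.
Kl, chr5:150952357-150952606, plus strand: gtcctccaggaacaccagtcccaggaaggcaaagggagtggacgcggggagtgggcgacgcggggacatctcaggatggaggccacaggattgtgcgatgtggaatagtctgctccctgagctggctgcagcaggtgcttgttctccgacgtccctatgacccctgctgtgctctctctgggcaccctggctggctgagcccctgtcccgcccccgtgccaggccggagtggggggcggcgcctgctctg
Kcne2, chr16:92292139-92292388, plus strand: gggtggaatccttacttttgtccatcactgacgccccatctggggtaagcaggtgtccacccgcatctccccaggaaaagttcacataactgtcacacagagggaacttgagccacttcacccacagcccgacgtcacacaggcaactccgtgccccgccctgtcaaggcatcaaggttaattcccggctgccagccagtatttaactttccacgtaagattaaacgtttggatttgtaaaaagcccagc
Kcnj13, chr1:87394730-87394979, minus strand: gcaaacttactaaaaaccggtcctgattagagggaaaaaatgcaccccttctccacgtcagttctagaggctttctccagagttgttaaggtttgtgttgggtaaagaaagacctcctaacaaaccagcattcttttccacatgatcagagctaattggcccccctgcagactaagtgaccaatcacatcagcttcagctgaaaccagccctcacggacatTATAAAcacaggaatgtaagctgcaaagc
The window of Kl had 66.8% G and C and 13 CpG pairs, that of Kcne2 52.4% and 9, and that of Kcnj13 45.2% and 3, beside medians of 52.4% and 6 over 32851 promoters. Windows not printed did not follow the remaining level: those of Slc4a5 and Tmem72, which also approached 0, had 62.8% and 58.8% G and C, the 3 of Prlr had 48.0%, 44.8% and 32.8%, and a second window of Kcne2 had 48.0% and 1 CpG pair. TATAAA starts 29 bases before the start of Kcnj13 and is found in 7.59% of all promoters. TAATCC, the core of the motif known for OTX proteins, was searched on both strands, where its other strand reads GGATTA. It was in 1 of the 13 promoter windows of these genes, an alternative promoter of Otx2, and in 6.25% of all promoters. It was not in the 3 windows printed. The search covers these letters in these windows and no binding was measured.

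Other genes were ranked by how closely their deviations from group means followed the mean deviation of the 8 genes tested. The 15 closest were Mfrp (r = 0.996), F5 (0.992), Enpp2 (0.991), Aqp1 (0.99), 1500015O10Rik (0.987), Abca4 (0.987), Slc2a12 (0.98), Col8a2 (0.978), Drc7 (0.977), Ace (0.977), Col9a3 (0.968), Lbp (0.966), Rdh5 (0.965), Sulf1 (0.964) and Trpv4 (0.962), over 47 libraries. Among them Aqp1 is the water channel of the apical membrane, Enpp2 encodes the secreted enzyme autotaxin and Ace the angiotensin-converting enzyme. Enpp2 reached the highest level of these, from 58.1 to 1620 CPM. Of the 11683 other genes tested, 440 had r of at least 0.5, 184 at least 0.7, 105 at least 0.8 and 33 at least 0.9, and 216 had r of -0.5 or less. These values describe libraries normalized together and carry no test.

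All 20 of the 30 other choroid plexus genes that passed the filter followed the same pattern, with a median r of 0.964 (0.8 to 0.996). Of these, 19 were among the 50 closest genes. Some passed the filter through the libraries high in Ttr, such as Aqp1 (median 0.566, mean 5.18 CPM) and Mfrp (0.708 and 14.6). For such genes a rise with Ttr was partly set by the filter, and genes of this list under it were not correlated. Markers of neighbouring cells followed the pattern less. Of 5 ependymal markers tested, Foxj1, the transcription factor of ciliated cells, had r = 0.857 and the other 4 had 0.269 to 0.352. Of 3 meningeal and fibroblast markers tested, the collagen gene Col1a2 had 0.743, Slc6a13 0.426 and Dcn 0.114. The median r was 0.168 over 12 endothelial and mural markers, 0.0846 over 4 red blood cell genes, 0.149 over 5 thalamic markers, 0.0157 over 11 hippocampal neuron markers, -0.305 over 7 astrocyte, 0.147 over 7 oligodendrocyte and -0.173 over 6 microglial markers. None of these 52 genes reached 0.5, as 440 of the 11683 other genes tested did. A count of none in 52 is near that share. The median over all genes tested was -0.0895.

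Genes of the pathways that the 10 genes belong to were divided. Their counts stand beside 440 of the 11683 other genes tested with r of at least 0.5. Aqp1 and Car12 are also in the list of other choroid plexus genes above. Of 16 genes of ion and water transport, 7 had r of at least 0.5: Aqp1 (0.99), the anion exchanger Slc4a2 (0.946), the carbonic anhydrases Car12 (0.914) and Car14 (0.865), the potassium chloride cotransporter Slc12a4 (0.84), the kinase Stk39 (0.839) and the sodium potassium chloride cotransporter Slc12a2 (0.832). The sodium pump subunit Atp1b1, at a mean of 1400 CPM, had r = -0.334. Kcnq1, which pairs with Kcne2 in potassium channels, was between 0.15 and 0.931 CPM and below the filter.

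For thyroid hormone and retinol handling, the tasks served by transthyretin, 4 of 10 genes reached 0.5, among them the thyroid hormone transporter Slco1c1 (0.821) and Stra6 (0.801), a membrane receptor for retinol-binding protein. The thyroid hormone receptor Thra, at a mean of 826 CPM, had r = -0.318. For folate handling 3 of 6 did, namely the carriers Slc46a1 (0.622) and Slc19a1 (0.612) and the hydrolase Ggh (0.621). For klotho and fibroblast growth factor signalling 1 of 6 did, Fgfr2 (0.586), and for prolactin receptor signalling 1 of 7, the adaptor Shc1 (0.53). Jak2 and Stat5b, which act directly after the prolactin receptor, had r of -0.342 and 0.203.

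In the 13 libraries with at least 1000 CPM of Ttr the level of each gene can be read relative to Ttr. These libraries were chosen by their Ttr after the values were seen, so the ratios are a description without a test. Per 1000 CPM of Ttr, Clic6 was at 18.3 to 21.0 CPM in 3 controls, 17.8 to 20.8 in 5 day 1 libraries and 14.3 to 24.9 in 5 day 4 libraries. Folr1 was at 11.3 to 12.7, 9.12 to 12.3 and 8.15 to 11.4 CPM. These ranges overlapped, as did those of Kl, Prlr, Otx2, Slc4a5 and Tmem72.

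Kcne2 and Kcnj13 had ranges that did not overlap with the controls. Kcne2 was at 4.85 to 5.86 CPM per 1000 CPM of Ttr in controls, 1.28 to 3.64 on day 1 and 2.31 to 4.78 on day 4, from 109 to 543 reads per library. Kcnj13 was at 6.98 to 7.66, 3.16 to 6.61 and 3.07 to 6.93 CPM. All 10 septic libraries were thus below all 3 controls for 2 of the 9 genes, and the same held for 6% of the 50 closest genes (Aqp1, 1500015O10Rik and Sulf1). On day 1 alone 20% of the 50 closest genes were below all controls. For both Kcne2 and Kcnj13 the closest values were nearly equal. They were 4.78 on day 4 against 4.85 in a control for Kcne2, and 6.93 against 6.98 for Kcnj13. Relative to the sum of the other 8 genes instead of Ttr, Kcne2 was below all controls on day 1 (16.1 to 33.4 against 41.2 to 56.3 CPM per 1000). On day 4 it was not (38.8 to 52.4), and Kcnj13 overlapped with the controls on both days. Clic6 was above all controls on both days by this measure, at 216 to 325 on day 1 and 218 to 300 on day 4 against 178 to 207. The remaining genes overlapped with the controls, and the 50 closest genes were not read against this sum.

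**Figure D5:**
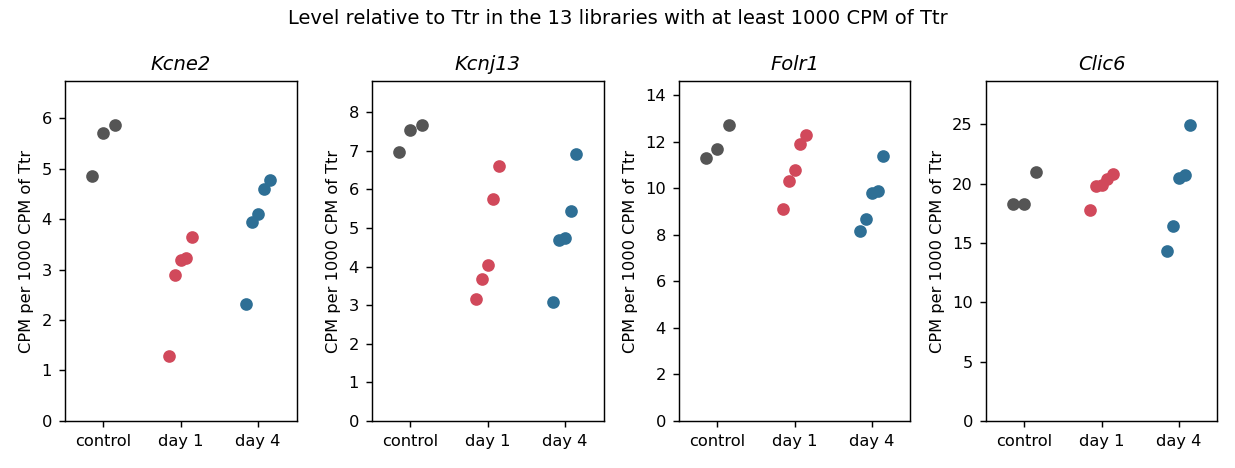
CPM per 1000 CPM of Ttr (axes from 0) for Kcne2, Kcnj13, Folr1 and Clic6 in the 13 libraries with at least 1000 CPM of Ttr: 3 control, 5 day 1 and 5 day 4, 1 point per library. All septic points are below all control points for Kcne2 and Kcnj13, and the ranges overlap for Folr1 and Clic6.

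Within these 13 libraries, old male day 4 replicate 3 had the least of the other 9 genes for its Ttr, 61.8 CPM per 1000 CPM of Ttr, and the others had 81.0 to 123 CPM. It is also the library with the highest Ttr of the old male day 4 group.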

How the data were processed

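Poly(A) RNA of 1 hippocampus per mouse was sequenced on the Ion Proton. Per the paper and the labels, the authors aligned reads to mm10 with STAR, counted them per gene in Partek Flow and applied TMM normalization. The values were deposited as CPM in 1 table of 28032 genes. Its columns summed to 767926 to 937374 CPM, 0 columns were without a sample, and groups came from the labels. Of values under 1000 reads, 80.3% to 84.0% lay within 0.05 reads of a whole number, so no count model was fitted.

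Values were tested as log2(CPM + 1) in the 11691 genes that averaged 5 CPM or more with limma 3.58.1 in R 4.3.3, with a variance trend and the libraries of the groups compared. This scale understates the change of low genes. Genes with an unadjusted p below 0.01, which the study used, are named called; adjusted p-values are Benjamini-Hochberg over all genes tested. Correlations used scipy 1.17.1. Gene positions came from GENCODE vM21. Data were simulated with a log2 change of 2 in 200 of 11691 genes. For old females on day 1 against control, 99.5% of changed and 1% of unchanged genes were called. The shares were 98.5% and 0.992% for an interaction, and 98% and 0.835% for the 12 groups. The 200 genes were drawn at random, each with its own SD within groups. These shares do not apply to the 8 genes, whose median SD was 1.95 against 0.161 over all genes tested.

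All 10 genes are named in each comparison, by value or in ranges. Other genes named are the 15 closest in within-group deviations, among the 50 that were counted, and members of cell type and pathway lists. Some list members are not reported by name here. The genes and lists were chosen with earlier results of these data known. Genes of ependymal, meningeal and fibroblast, endothelial and mural, red blood cell, thalamic, neuronal, astrocyte, oligodendrocyte and microglial lists were described by counts and medians. Alternatives were pseudocounts of 0.1 and 5 CPM, no filter, other scaling, a fit of all groups together, an F test without moderation, a replicate block and leaving out each library. Leaving out libraries with at least 1000 CPM of Ttr, and the covariate, were added after seeing the data. Replicate numbers were not used to pair libraries in the main fit. In 0 of 14 comparisons did every same-numbered pair have correlated deviations above 0.1. With 2 to 4 pairs in each, that check cannot show that a number marks nothing shared.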

Additional observations from a re-analysis of the deposited data

Results flagged for a closer look

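In 24 of 110 combinations of a gene and a group of 4, 1 library stood apart from the other 3 on the scale of log2(CPM + 1): its gap to the nearest, divided by the range of the group, was above Dixon's 95% critical value for 4 samples. Chance alone gives about 5% for normally distributed values, and since the 10 genes move together the 24 are not independent. The share over all genes tested was not computed, so the 24 are not shown to be particular to these genes. On this scale all are replicate 3 of a group.

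In old female controls replicate 3 stood above for 8 genes, with 1800 CPM of Ttr (others 9.90 to 21.0), 22.9 of Folr1 (1.12 to 1.92), 33.0 of Clic6 (1.39 to 1.72), 67.6 of Kl (12.7 to 15.6), 20.1 of Slc4a5 (0.113 to 0.274), 10.3 of Kcne2 (0.075 to 0.226), 16.5 of Tmem72 (0.113 to 0.391) and 13.8 of Kcnj13 (0.113 to 0.274). In old males on day 1 it did for 6 genes, with 2940 CPM of Ttr (8.44 to 15.7), 99.6 of Kl (14.7 to 19.4), 28.3 of Slc4a5 (0 to 0.196), 10.7 of Kcne2 (0.0771 to 0.236), 35.0 of Tmem72 (0.0387 to 0.157) and 19.4 of Kcnj13 (0.0775 to 0.308).

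In young female controls replicate 3 held 99.8 CPM of Kl (12.1 to 16.4), 32.9 of Prlr (2.16 to 2.65), 28.9 of Slc4a5 (0 to 0.349), 17.9 of Kcne2 (0 to 0.314), 31.6 of Tmem72 (0.104 to 0.174) and 23.0 of Kcnj13 (0 to 0.349). In old females on day 1 it held 10.5 CPM of Otx2 (1.04 to 1.41) and 4.01 of Kcne2 (0.393 to 0.543). The remaining cases were Kl in old males on day 4, at 40.6 CPM (17.0 to 18.6), and Kcnj13 in old male controls, at 0.863 CPM (0.0401 to 0.0836). No interaction of age or sex with sepsis was called for these genes.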

How the results depend on the processing

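Of 14 comparisons, old males on day 4 against control was the one in which genes were called (3 of 8). With a pseudocount of 0.1 CPM 5 were called, with 5 CPM 1, with no filter 1, with an unmoderated F test 0, and in 1 fit of all 12 groups 0. Ttr kept its log2 difference of 5.03 in the last 2, with adjusted p of 0.0387 and 0.0823. Clic6 and Folr1 were not called under the last 4 settings. Leaving out 1 library at a time, the count ranged from 1 to 5. It ranged from 0 to 1 in old against young male controls (1 without young male control replicate 3 or 4), in old males on day 4 against day 1 (1 without old male day 1 replicate 3) and in the interaction of sex and sepsis (1 without old female day 4 replicate 2). Without the libraries with at least 1000 CPM of Ttr, 5 were called in old males on day 4 against control (Ttr log2 difference 3.89), 4 on day 4 against day 1 and 2 in the interaction of sex and sepsis, and the median SD within groups was 0.736. This setting removes libraries by the level of a tested gene with which the others correlate, so it narrows the spread by its construction and bears on no call.

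Same-numbered libraries had correlated deviations of -0.59 to 0.49, so numbers were not treated as pairs. Whether a number marks something shared is not settled by these values. With the replicate block the counts were 5 in old males on day 4 against control, 1 in old males on day 1, 1 in old females on day 1, 3 in old females on day 4, and, for day 4 against day 1, 1 for young males, 2 for old males and 8 for old females. Comparisons of old mice on day 4 had 2 shared numbers each, which left few libraries to measure the spread in the block fit. No direction turned in any setting run for a called gene, and the causes of these shifts were not tested. Depth limits Slc4a5, Kcne2, Tmem72 and Kcnj13 in the libraries that hold 3 reads or fewer of them.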

Other observations

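The labels number the mice of a group but do not say what a number marks. Replicate 3 held the highest Ttr of its group in 7 of the 11 groups that have a replicate 3, replicate 1 in 2, replicate 4 in 2 and replicate 2 in 1. Of the 13 libraries with at least 1000 CPM of Ttr, 6 were replicate 3. These are counts made after the values were seen, with no test.

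Relative to Ttr, A2m, the gene of the protease inhibitor alpha-2-macroglobulin and 1 of the 50 closest genes, was higher on day 1 than in controls. In libraries with at least 1000 CPM of Ttr it was at 15.8 to 60.8 CPM per 1000 CPM of Ttr in 5 day 1 libraries, 3.53 to 15.7 in 3 controls and 4.71 to 8.79 in 5 day 4 libraries. Sostdc1, which encodes a secreted inhibitor of BMP and Wnt signalling, was at 0.729 to 3.97 on day 1, 5.96 to 8.71 in controls and 3.04 to 6.37 on day 4. The closest values of A2m, 15.8 on day 1 and 15.7 in a control, were nearly equal. Of the 50 closest genes, 1 was above all controls on day 1 and 20% were below all controls. A2m and Sostdc1 were picked after their values were seen, and neither ratio was tested.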
